A study of Mus musculus with 6 samples.

Results

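The Fanconi anaemia and homologous recombination genes are a set of 39 genes whose products unlink DNA crosslinks, repair broken or stalled replication forks by copying the sister chromatid, and signal the damage to the cell cycle. They were taken by symbol from a table of 49997 genes, and all 39 were found and passed the filter on low counts. RNA came from long-term haematopoietic stem cells (LT-HSCs), the rare marrow cells at the root of blood formation, of C57BL/6J mice aged 4 months, sorted as cells with low and cells with high Asrij, the endosomal and mitochondrial protein encoded by Ociad1. Each population was sequenced in 3 libraries, and the labels name no treatment and give the strain alone under genotype. The deposited table carries the tag ArjKI, which the labels do not explain, so whether the mice had an altered Ociad1 allele is not stated. The labels do not state what was read in the sort, how pure the gates were, or whether each library had its own mouse, so the tests measure the spread between libraries, which may be technical.

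The pathway works in steps. The Fanconi core complex, with the ubiquitin-conjugating enzyme UBE2T, marks the FANCD2-FANCI clamp at a crosslink, nucleases anchored on SLX4 cut it free, end resection by the MRE11-RAD50-NBN complex, CtIP (Rbbp8) and EXO1 exposes single strands, and BRCA1, PALB2 and BRCA2 load the recombinase on them. ATR and ATM with their effectors CHK1 and CHK2 hold the cycle meanwhile. Inherited loss of Fanconi genes causes bone marrow failure, and much of this pathway is expressed mainly in cells that replicate DNA.

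Totals ran from 24707012 to 46240743 counts in Asrij low and from 62732782 to 72855125 in Asrij high. Members had between 8 and 10051 counts in a library. Levels are CPM, a gene's counts divided by the library's total and scaled to a common size with TMM factors, as mean ± SD with n = 3 per group, log2 fold changes set Asrij high over Asrij low and carry a standard error (SE), and p-values of edgeR's quasi-likelihood test were adjusted over the 21445 genes tested, with 0.05 as threshold. Ociad1 was at 57.8, 50.2 and 46.6 CPM in Asrij low replicates 1 to 3 and at 86.8, 77.5 and 76.2 CPM in Asrij high, in the direction of the sort labels (adjusted p = 0.0115), a call that was lost under library totals (adjusted p = 0.131), upper quartile factors (0.0834) or without Asrij high replicate 1 (0.0831).

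Most of the pathway was higher in Asrij high. Of the 39 genes, 32 rose (82.1%) and 0 fell, against 21.7% of all tested genes that rose and 17.7% that fell. By unadjusted p under 0.05 in edgeR 0 members were lower, and DESeq2 and limma-voom also called 0 lower. At least 2-fold rises were called for 26 members (66.7%, against 13.9% of all tested genes). The 3 libraries of Asrij high stood clear above those of Asrij low for 33 members (84.6%, against 30.2% of all tested genes) and below them for 1, against 24.8% of all tested genes. The median log2 fold change was 1.38 over the members and -0.02 over all tested genes. Since these are bulk samples, more cells that express a gene and more RNA per cell cannot be told apart. In the plot of fold changes by role, no role group is without a rise, and the members that were not called are spread over 4 of the 7 groups.

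**Figure D1:**
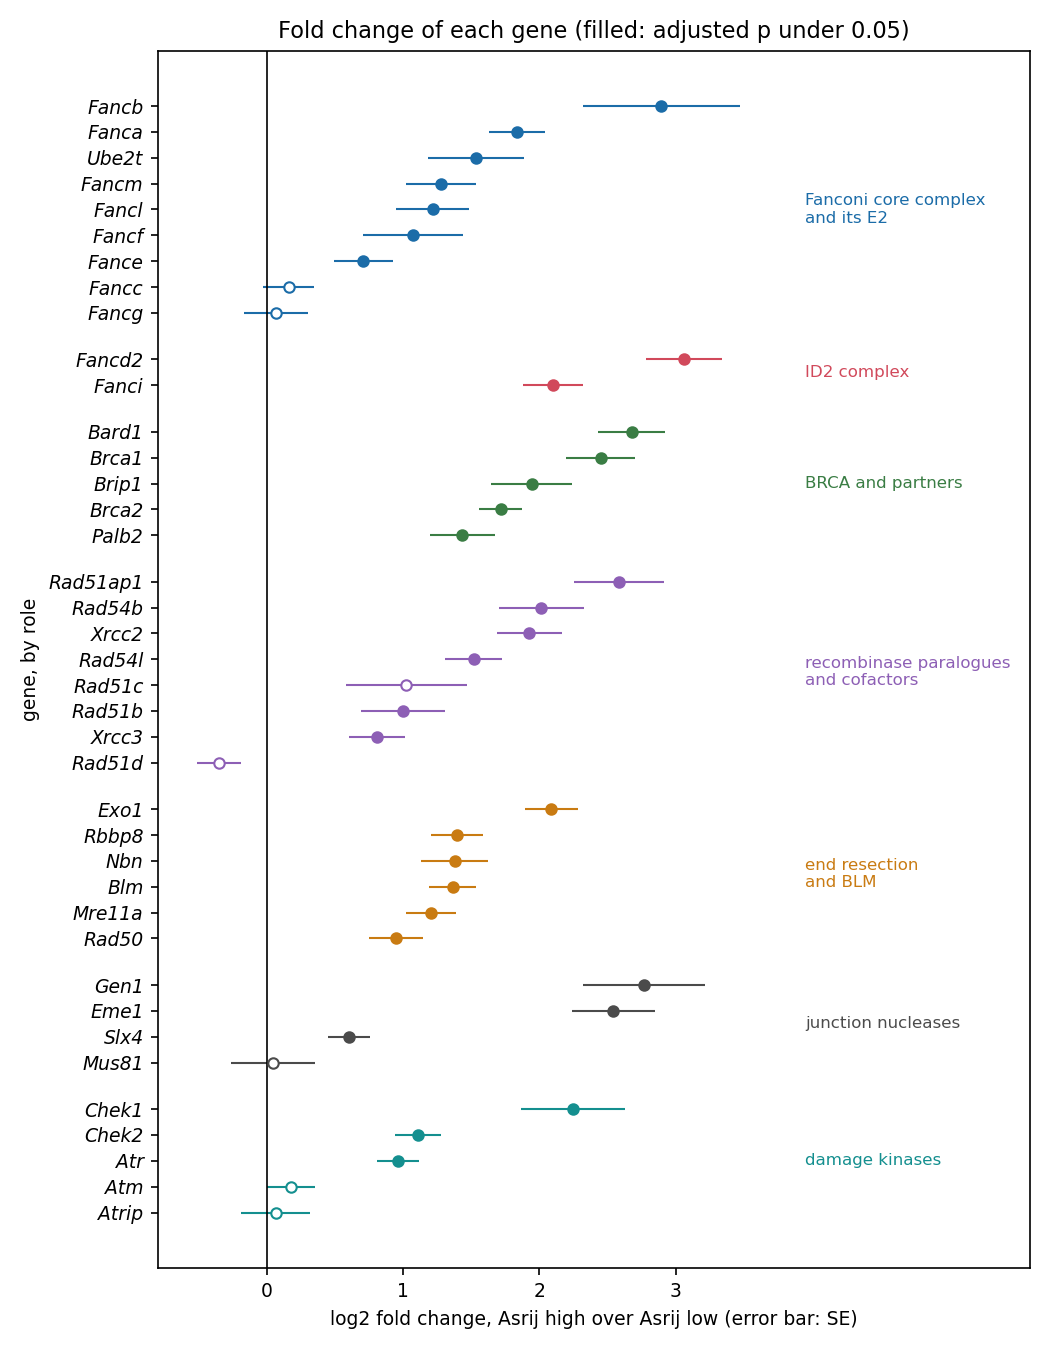
Log2 fold change of Asrij high over Asrij low (x axis) for each of the 39 genes, grouped by role (y axis), with the SE as error bar; filled points have an adjusted p under 0.05. Fancd2 (3.06), Fancb (2.89) and Gen1 (2.77) lie farthest to the right, and Rad51d (-0.36) is the only point left of 0.

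Scaling moved these values together. With library totals or upper quartile factors the median of all genes shifted by -0.27, and 27 members rose and 1 fell in place of 32 and 0. The member that fell was Rad51d (adjusted p = 0.0205 and 0.012). Across the 14 alternatives, 26 members stayed called in every one, and Fance, Fancf, Rad51b, Xrcc3, Slx4 and Ube2t lost the call in at least 1.

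The ID2 clamp, the substrate of the core complex, showed the largest rise of any role group. Fancd2, its ubiquitinated centre, was at 6.29, 6.05 and 9.91 CPM in Asrij low replicates 1 to 3 and at 68.5, 46.1 and 71.0 CPM in Asrij high, a rise of 8.36-fold (log2 fold change 3.06 ± 0.28 SE, adjusted p = 2.21e-04). In build GRCm38, Fancd2 lies on chromosome 6 (113531640 to 113597020 by RefSeq, plus strand by GENCODE M21), and counts are over the whole gene. The lowest Asrij high library was 4.66 times the highest Asrij low library. Fanci, its paired subunit, was at 13.1, 18.4 and 16.4 CPM and at 71.6, 54.0 and 79.6 CPM, a rise of 4.29-fold (adjusted p = 3.10e-04). For both genes Asrij high replicate 2 was the lowest of its group and still clear of Asrij low. Summed over both genes, the level was 23.4 ± 3.62 CPM in Asrij low, against 130 ± 26.6 CPM in Asrij high.

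The core complex and its E2 rose in 7 of 9 genes, with a wide spread from 0.06 to 2.89 on the log2 scale. Fanca, a scaffold subunit that binds FANCG, had 37.6, 23.7 and 37.6 CPM in Asrij low, against 125, 114 and 113 CPM in Asrij high (log2 fold change 1.83 ± 0.21, adjusted p = 3.84e-04). Fancb, which holds the catalytic module together, was scarce in Asrij low, at 1.52, 0.277 and 1.23 CPM (82, 8 and 32 counts), against 6.81, 7.08 and 8.89 CPM (log2 fold change 2.89 ± 0.58, adjusted p = 0.00421). Its large SE goes with the low counts of Asrij low. Without a single library its log2 fold change, like its fold change under every other alternative, stayed between 2.49 and 3.37.

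Within the catalytic side, the ubiquitin ligase gene Fancl had 6.82, 10.6 and 8.37 CPM in Asrij low, against 20.6, 16.2 and 23.1 CPM in Asrij high (log2 fold change 1.22 ± 0.27). Its partner E2 gene Ube2t rose by 1.53 ± 0.35 (adjusted p = 0.00784, 0.0521 without Asrij high replicate 3). The translocase gene Fancm, which brings the complex to DNA, rose by 1.27 ± 0.26. Smaller rises were those of Fance (0.71 ± 0.22, adjusted p = 0.0285) and Fancf (1.07 ± 0.36, adjusted p = 0.0421), adaptor subunits. Both lost the call under library totals (adjusted p = 0.19 and 0.133), upper quartile factors (0.125 and 0.0986) and without Asrij low replicate 3 (0.0761 and 0.0571), Asrij high replicate 1 (0.119 and 0.103) or replicate 3 (0.0512 and 0.0718), and with the third Asrij low and second Asrij high library both left out (0.0963 and 0.0922). Fancf also lost it when replicate 1 of Asrij low (0.0661) or replicate 2 of Asrij high (0.0872) was left out. In Asrij low, Fancf stood at 8.62 and 9.72 CPM in replicates 1 and 2 and at 3.66 CPM in replicate 3.

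The remaining subunit genes did not pass the test. Fancg had 23.6, 14.9 and 21.2 CPM in Asrij low, against 20.5, 22.7 and 19.4 CPM in Asrij high, and its log2 fold change was 0.06 ± 0.23 (adjusted p = 0.85). Fancc had 36.3, 36.6 and 27.8 CPM against 35.2, 38.0 and 39.3 CPM, with a log2 fold change of 0.16 ± 0.19 (adjusted p = 0.53). The libraries of both groups overlapped for both genes, and the sign of the difference reversed under library totals.

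All 5 genes of the BRCA group rose, and their summed level was 4.26 times as high in Asrij high. Brca1 had 16.1, 27.1 and 15.9 CPM in Asrij low, against 111, 87.0 and 124 CPM in Asrij high (log2 fold change 2.45 ± 0.25, adjusted p = 3.06e-04). Bard1, its obligate partner in a ubiquitin ligase, had 10.4, 14.2 and 16.9 CPM against 96.0, 67.0 and 101 CPM (log2 fold change 2.68 ± 0.25, adjusted p = 2.21e-04). Brca1 lies on chromosome 11 (101488761 to 101551955, minus strand). Both genes were lowest in replicate 2 among the Asrij high libraries, and neither group overlapped the other.

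Brca2, which delivers the recombinase to resected DNA, was the steadiest member of the group in Asrij low, with 37.2, 35.4 and 36.8 CPM. In Asrij high it had 121, 105 and 133 CPM (log2 fold change 1.72 ± 0.16, adjusted p = 2.21e-04). Palb2, the bridge between BRCA1 and BRCA2, rose by 1.43 ± 0.24, and the helicase gene Brip1 by 1.94 ± 0.30.

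The recombinase paralogues differed in whether they were called, which by itself does not show unequal changes. These proteins stabilise the recombinase filament as the BCDX2 complex (RAD51B, RAD51C, RAD51D and XRCC2) and the CX3 complex (RAD51C and XRCC3). Xrcc2 had 9.58, 13.2 and 9.60 CPM in Asrij low, against 46.3, 32.7 and 43.9 CPM in Asrij high (log2 fold change 1.93 ± 0.24, adjusted p = 5.54e-04). Rad51d, its direct partner, went the other way in level, at 45.0, 45.4 and 46.5 CPM against 35.3, 37.8 and 33.9 CPM, but did not pass the test (log2 fold change -0.36 ± 0.16, adjusted p = 0.109). All Asrij high libraries were below all Asrij low libraries for Rad51d, the 1 member with this order.

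Rad51b (log2 fold change 0.999 ± 0.31, adjusted p = 0.0297) and Xrcc3 (0.81 ± 0.20, adjusted p = 0.0123) rose less than Xrcc2 in their fitted values. Rad51b was not past the threshold under library totals (adjusted p = 0.0943), upper quartile factors (0.0798) or when replicate 1 (0.081) or 3 (0.0639) of Asrij low, replicate 1 (0.0816) or 3 (0.137) of Asrij high, or the third Asrij low and second Asrij high library together (0.0802) were left out. Xrcc3 was not under library totals (0.0703), upper quartile factors (0.0739) or without Asrij high replicate 1 (0.0768) or 3 (0.0549). Rad51c, with 64 to 90 counts per library in Asrij low, had 1.53, 3.11 and 2.47 CPM against 4.22, 3.55 and 6.65 CPM and was not called (log2 fold change 1.02 ± 0.45, adjusted p = 0.0963).

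The cofactors of strand exchange rose without exception. Rad51ap1, which helps pair the strands, had 5.08, 8.03 and 10.5 CPM in Asrij low, against 53.5, 31.6 and 55.6 CPM in Asrij high (log2 fold change 2.58 ± 0.33, adjusted p = 6.19e-04). The translocase genes Rad54l and Rad54b rose by 1.52 ± 0.21 and 2.01 ± 0.31. Rad54b shares 35.8% of its annotated exon bases with Fsbp on the same strand, and Fsbp had 0.926 to 3.39 CPM in Asrij low, against 4.15 to 5.65 CPM in Asrij high, so the 2 genes' reads may not be fully separable.

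Every gene of end resection rose. Exo1, a nuclease for long-range resection, had 14.2, 18.6 and 16.2 CPM in Asrij low, against 74.2, 59.0 and 74.9 CPM in Asrij high (log2 fold change 2.09 ± 0.20, adjusted p = 2.21e-04). The 3 subunits of the break sensor rose less than Exo1 in their fitted values, Nbn by 1.38 ± 0.25, Mre11a by 1.20 ± 0.18 and Rad50 by 0.95 ± 0.20. Rbbp8, which activates the MRE11 nuclease, had 18.9, 17.0 and 16.7 CPM against 52.7, 43.2 and 42.4 CPM (log2 fold change 1.40 ± 0.19). Blm, the helicase that also dissolves double Holliday junctions, rose by 1.36 ± 0.17 (adjusted p = 5.73e-04).

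Among the nucleases that cut joint molecules, the fitted changes of Eme1 and Gen1 were far from that of Mus81. Eme1, the partner subunit without its own active site, had 6.40, 6.37 and 12.3 CPM in Asrij low, against 51.8, 39.7 and 54.0 CPM in Asrij high (log2 fold change 2.54 ± 0.30, adjusted p = 4.81e-04). Mus81, the catalytic subunit of the same enzyme, had 20.01, 10.4 and 17.5 CPM against 16.1, 20.9 and 12.4 CPM, and its log2 fold change was 0.04 ± 0.31 (adjusted p = 0.924). Eme1 lies on chromosome 11 (94644972 to 94653836) and Mus81 on chromosome 19 (5482561 to 5488389), both on the minus strand. The Mus81 libraries of both groups overlapped, and the sign of its difference reversed in 8 of the 14 alternatives.

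Gen1, a resolvase of Holliday junctions, had 6.18, 1.83 and 7.06 CPM in Asrij low, with 53 counts in replicate 2, and 33.5, 27.8 and 41.5 CPM in Asrij high (log2 fold change 2.77 ± 0.45, adjusted p = 0.00171). The scaffold gene Slx4 rose by 0.60 ± 0.15 (adjusted p = 0.0133). That call was lost under library totals (adjusted p = 0.117), upper quartile factors (0.106) and without Asrij high replicate 1 (0.0548) or 3 (0.09).

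The checkpoint kinases differed in their calls as well. Chek1, the replication-stress kinase downstream of ATR, had 8.32, 17.9 and 6.13 CPM in Asrij low, against 54.1, 38.9 and 60.1 CPM in Asrij high (log2 fold change 2.25 ± 0.38, adjusted p = 0.00213). Asrij low replicate 2 was the highest and Asrij high replicate 2 the lowest of its group, and the groups did not overlap. Atr had 39.3, 38.4 and 35.7 CPM against 75.6, 69.7 and 75.3 CPM (log2 fold change 0.96 ± 0.15, adjusted p = 0.00158), and Chek2 rose by 1.11 ± 0.17.

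Atm, the kinase that answers double-strand breaks, had 86.5, 110 and 80.8 CPM in Asrij low, against 93.2, 104 and 116 CPM in Asrij high (log2 fold change 0.18 ± 0.17, adjusted p = 0.451). Atrip, the subunit that recruits ATR, had 19.6, 22.4 and 12.8 CPM against 18.8, 20.8 and 17.7 CPM (log2 fold change 0.06 ± 0.25, adjusted p = 0.863). Neither passed the test, and in both the groups overlapped. Atrip shares 16.0% of its annotated exon bases with Trex1 on the same strand.

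**Figure D2:**
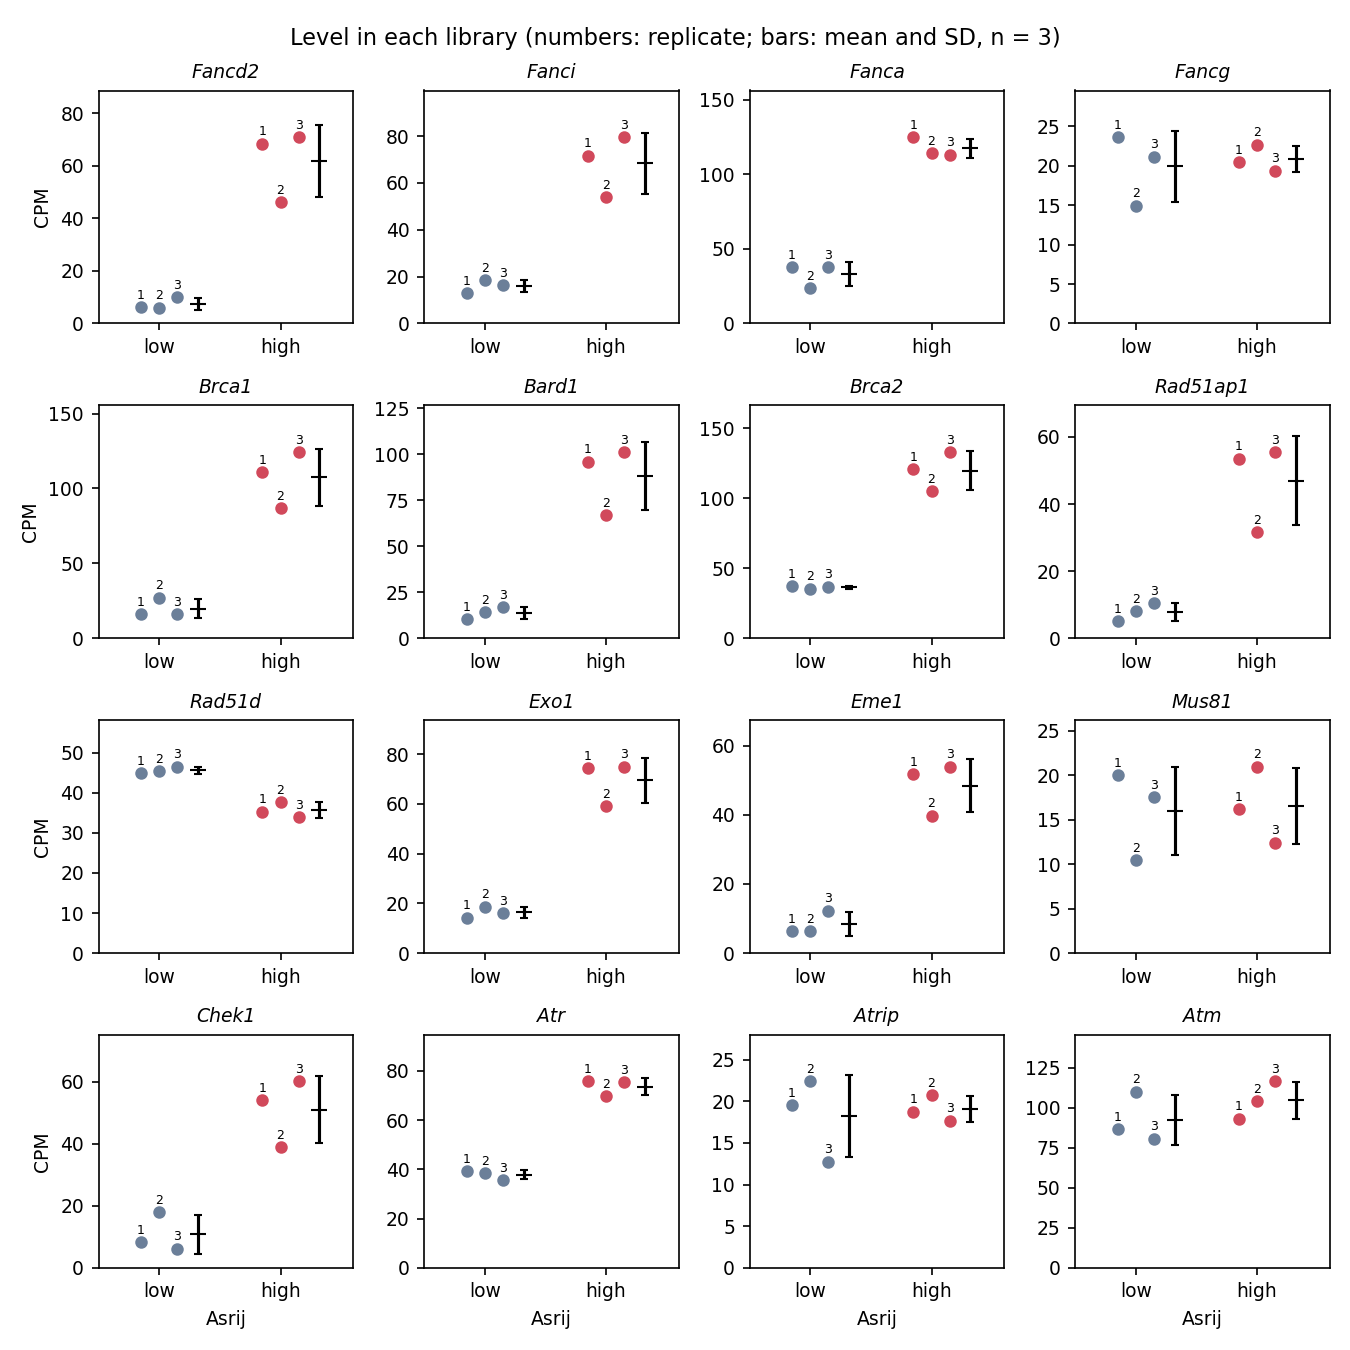
Level in CPM (y axis, from 0) of 16 of the genes in each library of Asrij low and Asrij high (x axis); points are libraries numbered by replicate, and the bar beside them is the mean with SD (n = 3). Fancd2, Brca1, Eme1 and Chek1 are separated between the groups, whereas the points of Fancg, Mus81, Atrip and Atm overlap.

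Since partner subunits were counted in the same libraries, their ratio of counts needs no scaling between libraries. For 9 pairs of partners, chosen after the members' values were seen, the ratio was taken in each library and compared by an exact permutation test (two-sided), whose smallest possible p with 3 against 3 is 0.1 (0.18 adjusted over the 9 pairs). The ratio did not overlap between groups for 5 pairs, each of which had this smallest p. How often the ratios of other gene pairs do so was not counted. These ratios compare the change of a pair between groups and not the levels of its genes.

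The ratio of Eme1 to Mus81 was 0.320, 0.609 and 0.700 in Asrij low replicates 1 to 3 and 3.21, 1.90 and 4.35 in Asrij high, 5.79 times as high. That of Xrcc2 to Rad51d was 0.213, 0.290 and 0.206 against 1.31, 0.866 and 1.29, or 4.87 times as high. Neither ratio overlapped between the groups. The pairs were picked with these values known, and the exact permutation test cannot pass 0.05 here, so no unequal change is called. The ratio of Fancd2 to Fanci went from 0.471 ± 0.137 to 0.901 ± 0.0516, that of Atr to Atrip from 2.17 ± 0.560 to 3.88 ± 0.471, and that of Mre11a to Rad50 from 0.629 ± 0.0604 to 0.736 ± 0.0459.

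In the other 4 pairs the ratios of the groups overlapped. Brca1 to Bard1 was 1.47 ± 0.489 in Asrij low and 1.23 ± 0.0721 in Asrij high (exact permutation p = 0.6). Brca2 to Palb2 was 4.26 ± 0.687 and 5.06 ± 0.486 (exact permutation p = 0.2), Ube2t to Fancl 0.329 ± 0.119 and 0.405 ± 0.117 (p = 0.5), and Rad51c to Xrcc3 0.123 ± 0.0595 and 0.137 ± 0.0524 (p = 0.6). With 3 libraries a group, a p of this size does not show that these partners changed alike.

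**Figure D3:**
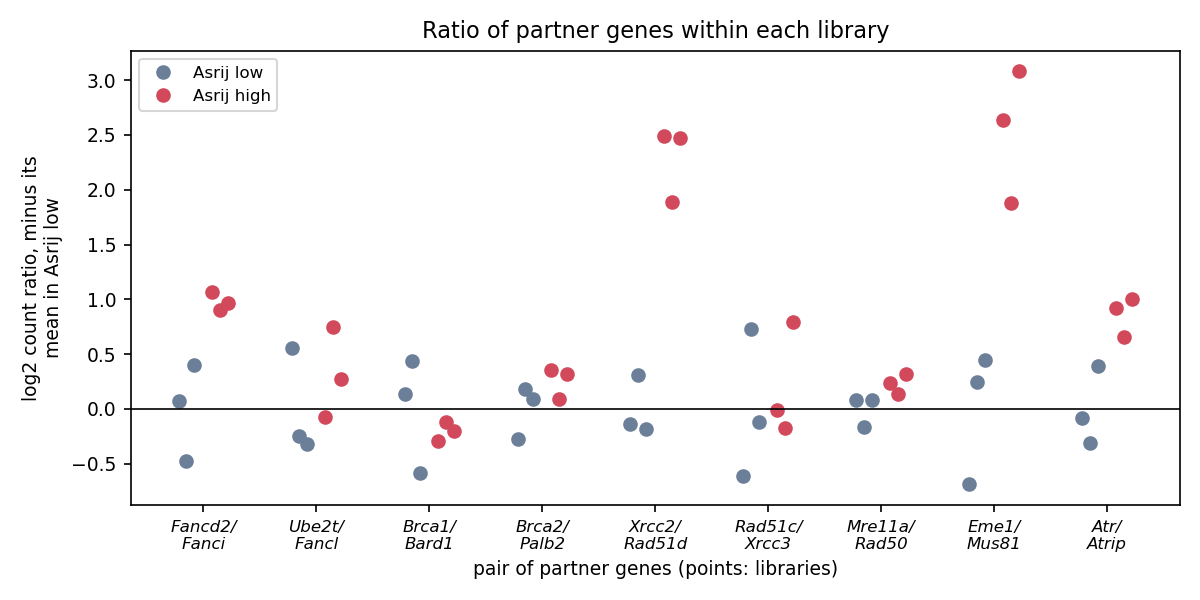
Log2 ratio of the counts of 2 partner genes in each library, minus its mean in Asrij low (y axis), for 9 pairs (x axis); each point is 1 library. The Asrij high points of Eme1 to Mus81 and Xrcc2 to Rad51d lie far above the Asrij low points, and those of Brca1 to Bard1 lie among them.

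Within Asrij high many members also shared an order of libraries. Its share over all tested genes was not counted, so it may not be particular to the members. Asrij high replicate 2 was the lowest of its group for 22 of 39 members (21 of the 32 that rose), and replicate 3 the highest for 26. In Asrij low, 15, 10 and 14 members were lowest in replicates 1 to 3, and 13, 17 and 9 were highest. The summed level of the members was 862, 953 and 836 CPM in Asrij low, against 2208, 1880 and 2299 CPM in Asrij high. Their share of all counts ran from 0.0877% to 0.102% in Asrij low and from 0.181% to 0.208% in Asrij high, which uses no scaling factor.

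**Figure D4:**
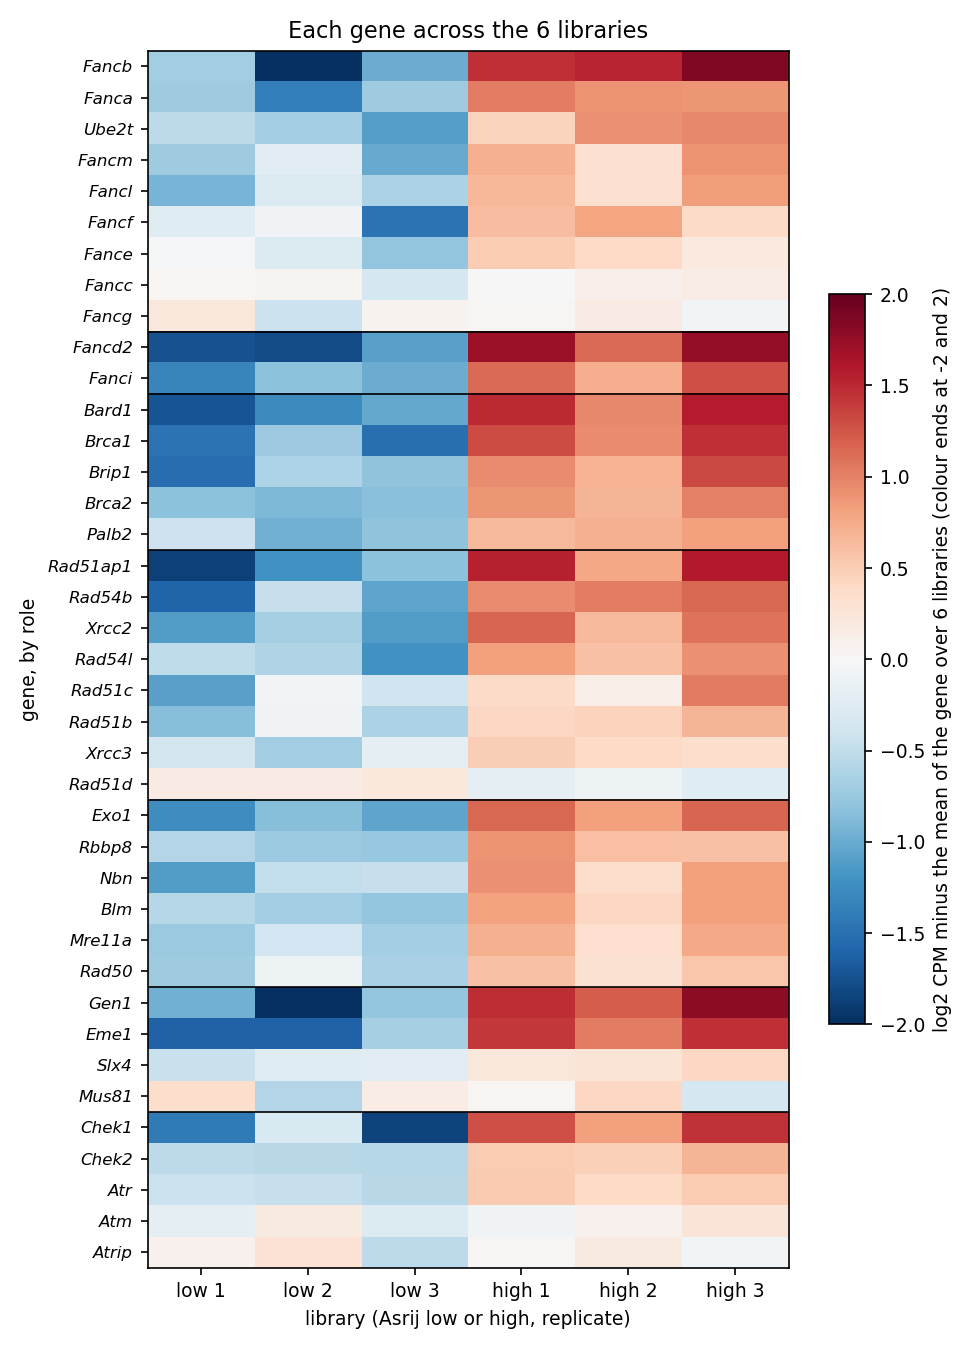
Log2 CPM of each of the 39 genes minus its mean over the 6 libraries (colour), with genes in rows by role and libraries in columns. The rows of Fancd2, Bard1 and Rad51ap1 change from blue in Asrij low to red in Asrij high, with a paler Asrij high replicate 2, and the row of Rad51d has the opposite, faint pattern.

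Proliferation markers moved with the members. All 25 genes of that list rose, with a median log2 fold change of 2.57, and their summed level was 1615 to 2051 CPM in Asrij low, against 6604 to 9438 CPM in Asrij high, with replicate 2 the lowest Asrij high library. Mki67 rose by 2.81 ± 0.33, the replication clamp gene Pcna by 1.94 ± 0.24 and the mitotic cyclin gene Ccnb1 by 3.62 ± 0.27. The list of LT-HSC gate and identity genes moved the opposite way, with 9 of 10 lower. Their sum was 1321 to 1614 CPM in Asrij low, against 433 to 716 CPM in Asrij high, where replicate 2 was the highest. The list pools genes that mark LT-HSCs with Cd34, Flt3 and Cd48, which LT-HSC gates commonly exclude. Its count and sum are therefore no measure of LT-HSC identity. On average Procr fell from 34.3 CPM in Asrij low to 4.06 CPM in Asrij high, Slamf1 from 32.1 to 6.16 and Kit from 681 to 378. All of them had counts in every library. The part of these shifts in the members' rise was not tested.

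**Figure D5:**
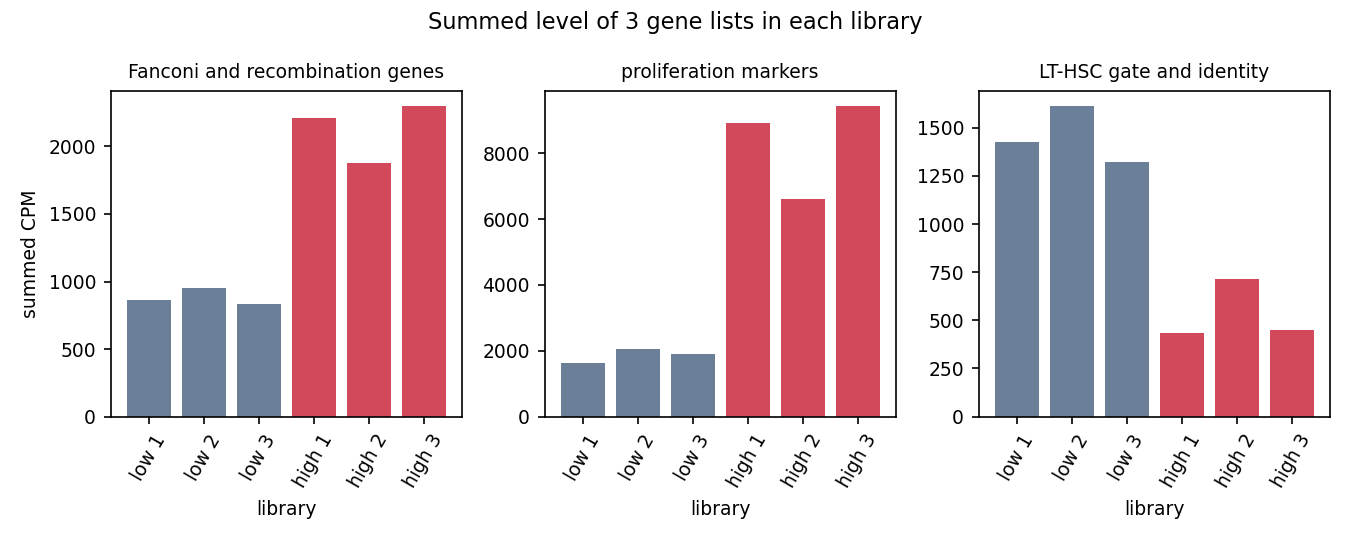
Summed CPM (y axis, from 0) of the 39 genes, of 25 proliferation markers and of 10 LT-HSC gate and identity genes in each of the 6 libraries (x axis). Asrij high replicate 2 is the lowest Asrij high library in the first 2 panels (1880 and 6604 CPM) and the highest in the third (716 CPM).

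Markers of other cells differed between the groups too, and their part in the members' values was not tested. All 7 B cell genes (sum 80.0 to 218 CPM in Asrij low, 17.1 to 24.8 CPM in Asrij high) and all 6 stromal genes (235 to 755 and 22.9 to 75.2 CPM) fell, as did 2 of 4 endothelial genes (85.4 to 135 and 15.2 to 42.0 CPM). Among 9 erythroid genes 4 rose and 4 fell, and globins raised their sum to 58151 CPM in Asrij low replicate 3. In the granulocyte and monocyte list 4 of 8 rose and 0 fell (816 to 3303 and 4118 to 6853 CPM). Of 5 megakaryocyte genes 1 fell (367 to 598 and 176 to 684 CPM). T and NK cell genes had 3 of 6 members tested and 0 called by edgeR (0 at an unadjusted p under 0.05), and Cd3e was at 0 in 3 libraries. Leaving out the third Asrij low and the second Asrij high library together, 29 members rose. In the libraries left in, the stromal sum was still 321 and 235 CPM in Asrij low, against 22.9 and 35.9 CPM in Asrij high. This count therefore does not test the part of other cells.

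Other genes of the same pathways also rose in most cases. Their list was chosen with earlier results of these data known, so its count is no independent support. In a list of 66 further recombination, Fanconi and checkpoint genes, 46 rose (69.7%, against 21.7% of all tested genes) and 0 fell, with a median log2 fold change of 0.98. By unadjusted p under 0.05 in edgeR 1 was lower, limma-voom called 0 lower and DESeq2 called 1. Recql4, a helicase acting at the start of replication, had 6.60, 6.99 and 6.52 CPM in Asrij low, against 82.7, 62.3 and 86.1 CPM in Asrij high, the smallest p of the list (log2 fold change 3.52 ± 0.21, adjusted p = 1.09e-04). The ATR mediator gene Clspn rose by 2.82 ± 0.32, the fork protection gene Timeless by 2.26 ± 0.20, the recombination regulator gene Fignl1 by 2.38 ± 0.26 and H2ax, the histone variant marked at breaks, by 2.53 ± 0.28. Fan1, a crosslink nuclease, was at 18.9 and 19.2 CPM on average in Asrij low and Asrij high (log2 fold change 0.03, adjusted p = 0.938), and the core complex partner genes Faap100 (0.03, adjusted p = 0.935) and Faap20 (-0.51, adjusted p = 0.0931) did not pass the test either. These 3 genes were picked after their values were seen.

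Levels can be set beside each other between genes only per length, and for many members the annotated coding transcripts differ too much in length for that (for Brca1 the median is 0.531 kb and the longest 6.57 kb). For 12 members, a subset chosen after the lengths were seen, the median and longest transcript lengths lay within 10% of each other. Per kb, the mean level in Asrij high was highest for Rad54l (35.0 CPM per kb), Blm (23.5), Eme1 (19.8), Bard1 (15.6), Xrcc3 (14.6), Rbbp8 (14.4) and Brca2 (11.4), followed by Fancf (9.13), Atr (9.10), Fancg (7.52), Brip1 (4.37) and Fancb (2.57). In Asrij low the order was led by Rad54l (12.2 CPM per kb), Blm (9.13), Xrcc3 (8.33) and Fancg (7.19), and Bard1 (2.44) and Eme1 (3.41) lay in its lower part. There the means of Rad54l and Blm (SD 2.94 and 0.643) lay closer together than the sum of their SDs. The same held for Blm and Xrcc3 (SD 1.47) and for Xrcc3 and Fancg (SD 1.62). In Asrij high, this also held for neighbours in the order from Blm to Atr. These SDs are between libraries and ignore that both genes of a pair were counted in the same libraries. Levels were not tested between genes, so neither a difference nor its absence is shown. The SD was 3.47 for Blm, 3.13 for Eme1, 3.26 for Bard1 and 0.758 for Xrcc3. It was 1.78 for Rbbp8, 1.34 for Brca2, 1.27 for Fancf and 0.413 for Atr.

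Because the members rose together, their promoters were searched for motifs of the E2F factors and of CCAAT-binding factors, which are known regulators of replication genes. RefSeq promoters (GRCm38.p6, the assembly of mm10) gave the stretch from 250 bases before to 50 after the start for 31 of 39 members. The set held none for Fancd2, Rbbp8, Rad50, Xrcc2, Rad51d, Exo1, Rad54b and Nbn. The shares below therefore leave out these genes, among them Fancd2, the member with the largest rise. The most upstream start of this promoter set was used, which can lie inside the annotated span of the gene. An E2F match (TTTGGCGC, TTTCCCGC, TTTGCCGC or TTTCGCGC on either strand) was in 5 of 31 (16.1%), against 2.33% of all 27025 promoters and 3.71% of the 14110 promoters of tested genes. GGCGGGAA, which can overlap the former by 7 bases, was in 5 of 31 (16.1% against 2.27% and 3.66%). CCAAT on either strand was in 20 of 31 (64.5% against 38.0% and 38.1%), and the cell cycle element written as TTTGAA or TTCGAA was in 4 of 31 (12.9% against 19.5% and 15.4%). Of the 25 members with a promoter that rose, 3 held the E2F match and 17 CCAAT, and of the 6 that were not called, 2 and 3 did. A match describes letters and shows no binding.

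The rule for printing asked for 4 members that rose with an E2F match. In the 250 bases before the start 3 held one, and these are printed 5′ to 3′ as the gene reads, with E2F and CCAAT matches of either strand in capitals (the minus-strand forms read GCGGGAAA and ATTGG). The match lies 168 to 161 bases before the start in Brca2, 209 to 202 in Bard1 and 152 to 145 in Chek2. By gene span, however, Brca2 begins at 150522297 and Chek2 at 110839800, so both matches lie inside the annotated gene. The span of Bard1 reaches 71103141, so part of its printed stretch lies inside the gene too.
Brca2, chr5:150522371-150522620, plus strand: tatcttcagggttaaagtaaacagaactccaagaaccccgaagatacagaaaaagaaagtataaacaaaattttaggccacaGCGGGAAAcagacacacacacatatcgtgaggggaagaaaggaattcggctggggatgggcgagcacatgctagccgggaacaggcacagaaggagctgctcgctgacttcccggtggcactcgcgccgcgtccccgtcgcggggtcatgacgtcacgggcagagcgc
Bard1, chr1:71102973-71103222, minus strand: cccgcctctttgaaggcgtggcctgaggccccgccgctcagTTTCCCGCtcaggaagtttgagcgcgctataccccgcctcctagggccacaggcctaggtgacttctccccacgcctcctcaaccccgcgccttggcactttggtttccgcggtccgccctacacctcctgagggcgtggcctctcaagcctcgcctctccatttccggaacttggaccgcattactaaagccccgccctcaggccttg
Chek2, chr5:110839733-110839982, plus strand: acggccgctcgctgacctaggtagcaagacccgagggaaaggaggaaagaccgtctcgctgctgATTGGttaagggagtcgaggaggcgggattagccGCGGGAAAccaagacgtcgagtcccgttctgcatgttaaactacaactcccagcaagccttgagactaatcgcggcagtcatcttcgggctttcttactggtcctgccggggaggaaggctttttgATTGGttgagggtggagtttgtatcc

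The 2 members with a promoter and a fold change nearest 0 are shown for comparison over 150 bases before the start. Mus81 held no E2F or CCAAT match there, and Atrip held 1 CCAAT match. The E2F matches printed above lie wholly or partly outside such a stretch, so the 2 sets are not shown over like lengths. Other members that were not called did hold an E2F match. In Fancg (log2 fold change 0.06) it lies 52 to 45 bases before the start, and in Rad51c it spans the start. Neither is printed.
Mus81, chr19:5488380-5488529, minus strand: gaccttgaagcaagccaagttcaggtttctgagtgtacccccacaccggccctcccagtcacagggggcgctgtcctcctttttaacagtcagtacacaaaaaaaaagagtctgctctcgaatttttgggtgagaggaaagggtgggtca
Atrip, chr9:109074125-109074274, minus strand: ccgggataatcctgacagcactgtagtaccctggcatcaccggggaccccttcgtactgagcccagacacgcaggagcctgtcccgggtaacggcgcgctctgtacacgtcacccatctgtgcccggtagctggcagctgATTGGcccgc

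CCAAT was repeated in several promoters of genes that rose. How often it is repeated over all promoters was not counted, so these repeats are not set against the rise. Brip1, Ube2t and Fancf each held 3 matches in the 150 bases before the start and were picked for printing after the promoters were read. Xrcc3, which also rose, held 3 matches in the same stretch and 6 in 250 bases, the most of any member with a promoter, and is not printed. The matches begin 99, 67 and 34 bases before the start in Brip1, on the minus strand, 124, 80 and 40 bases before it in Ube2t, and 118, 72 and 31 bases before it in Fancf, both on the plus strand.
Brip1, chr11:86201194-86201343, minus strand: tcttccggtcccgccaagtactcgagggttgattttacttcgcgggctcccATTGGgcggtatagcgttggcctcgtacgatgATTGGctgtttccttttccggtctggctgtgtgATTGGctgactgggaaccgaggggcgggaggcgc
Ube2t, chr1:134962415-134962564, plus strand: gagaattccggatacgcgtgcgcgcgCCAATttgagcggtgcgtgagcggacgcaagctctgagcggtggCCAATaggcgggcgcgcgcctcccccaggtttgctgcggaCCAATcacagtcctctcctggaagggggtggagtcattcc
Fancf, chr7:51862268-51862417, minus strand: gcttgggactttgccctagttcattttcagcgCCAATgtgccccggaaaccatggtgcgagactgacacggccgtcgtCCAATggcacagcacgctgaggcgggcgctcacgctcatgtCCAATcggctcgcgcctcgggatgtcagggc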

How the data were processed

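The authors deposited whole-number read counts per gene symbol for 6 libraries, not normalized. Per the labels' protocols, column-isolated RNA of sorted cells was depleted of ribosomal RNA and made into stranded libraries, although the molecule field names polyA RNA. The tools named per the submitters' processing notes are HISAT2 and SAMtools, with FastQC and Subread, on mm10. Their versions, the annotation and the strand and multimapping settings were not given in these sources, so genes with overlapping or near-identical neighbours are uncertain.

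With R 4.3.3, edgeR 4.0.16 (quasi-likelihood test, robust, TMM, filterByExpr with minimum count 10 and total 15) compared the groups, with group as the only term and Benjamini-Hochberg adjustment over 21445 of 49997 genes. SE came from the quasi-likelihood statistic. Alternatives were library totals, RLE and upper quartile factors, no filter, DESeq2 1.42.0, limma-voom (limma 3.58.1), a replicate block and leaving out libraries. The pipeline was tested on simulated counts. Ratios were tested with scipy 1.17.1. Transcript lengths, exon overlaps and strands are from GENCODE M21 (GRCm38), gene coordinates from RefSeq, and promoters from RefSeq on GRCm38.p6.

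Members and lists were chosen with earlier results of these data known. By rule all members were named, with the 6 further pathway genes of smallest p in each direction and Mki67, Pcna and Ccnb1. The result of 1 gene that the rule takes in is not reported here. The smallest library (24707012 counts) puts a gene with no count below 0.121 CPM by a floor of 3 counts, which covers counting error only.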

Additional observations from a re-analysis of the deposited data

How the results depend on the processing

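The count of 32 members that rose ran from 26 to 32 over leaving out each library and from 27 to 32 over the other alternatives, and it was 29 without both the third Asrij low and the second Asrij high library. The count of members that fell was 0, or 1 under library totals and under upper quartile factors. The median over members, 1.38, was 1.11 under either scaling, and 1.24 to 1.48 without 1 library. Other pathway genes that fell numbered 1 under library totals, upper quartile factors and DESeq2, and 2 with both libraries left out. Genes that fell among all tested ranged from 2346 (without Asrij high replicate 1) to 3752 without 1 library, against 3797, and those that rose from 3135 to 5183, against 4655. The share of rises among called genes was 55.1%, against 40.4% under library totals and 39.9% under upper quartile factors. Ociad1 was at log2 0.36 under both scalings and from 0.53 to 0.76 without 1 library.

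Differences of members that were not called changed sign in places. Under library totals and upper quartile factors these were Fancc (-0.11 and -0.11), Fancg (-0.21 and -0.22), Mus81 (-0.22 and -0.24), Atm (-0.087 and -0.087) and Atrip (-0.21 and -0.20). Mus81 was also at -0.015 under RLE factors and DESeq2, from -0.15 to 0.27 without 1 library (below 0 without Asrij low replicate 2, Asrij high replicate 1 or Asrij high replicate 2), and at -0.13 with both libraries left out. Without 1 library Fancg ranged from -0.072 (Asrij low replicate 2 left out) to 0.24 and Atrip from -0.16 (Asrij low replicate 3 left out) to 0.27, and Atrip was at -0.22 with both left out. The cause was not tested.

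With a replicate block, 32 members rose, 45 other pathway genes rose, and 4475 and 3613 of all genes rose and fell. Same-numbered libraries deviated together with correlations of 0.01, 0.05 and 0.22 for numbers 1 to 3, and not every library correlated best with its own number, so the pairing is not shown by the data. Before the start alone, GGCGGGAA was in 2 member promoters and the cell cycle element in 2. Fancb had 8 to 82 counts in the Asrij low libraries and Rad51c 64 to 90, so their values there rest on few counts.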
